A study of Mus musculus with 12 samples.

Results

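The genes described here encode the integrins, the laminins, the nidogens Nid1 and Nid2 and fibronectin (Fn1). They were chosen by name, as array probes whose gene symbol in the scanner files is that of an integrin alpha chain (numbered, Itgav, Itgae, Itgal, Itgam or Itgax), an integrin beta chain, a laminin chain, a nidogen or fibronectin, with the brightest probe standing for each gene. This gave 38 of the 31732 genes on the array, with 53 of its 39429 probes: 11 laminin chains, 2 nidogens, fibronectin, 16 integrin alpha chains and 8 integrin beta chains. No measured difference entered this rule, though the genes were chosen with earlier results of these data known.

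The study grew neural precursors from actin-eGFP mouse embryonic stem cells (mESC) of strain C57BL/6 and set cells enriched for PSA-NCAM beside cells that were not. PSA-NCAM is an adhesion molecule of immature neurons that carries polysialic acid and was the antigen of the enrichment. Each of 12 arrays set 1 sample, labelled with Cy5, against common mESC RNA labelled with Cy3, so a level is given as a log2 ratio to mESC. The 4 groups, with 3 samples each that the series design calls biological replicates, were step 4 control, step 4 enriched, step 5 control and step 5 enriched. Enriched cells had been labelled with an antibody to PSA-NCAM and retained on a magnetic column after removal of dead cells, and control cells had not been enriched. All groups came from embryoid bodies that had been selected for 6 days in serum-free medium with fibronectin at 5 µg/ml. Step 4 was 5 days on polyornithine and laminin in N2 medium with laminin at 1 µg/ml and bFGF at 10 ng/ml. Step 5 was 7 further days without bFGF, with B27 in place of N2 and ascorbic acid at 200 µM. The labels do not say whether the enriched cells of step 5 were enriched before or after those 7 days. Every sample therefore met added laminin and fibronectin as protein, while the arrays measured RNA of the cells themselves. A lower ratio in these mixed populations can come from fewer cells of a type or from less RNA per cell, which cannot be told apart.

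Basement membranes are thin sheets of extracellular matrix under epithelia, around vessels and muscle, and at the surface of the developing brain. Laminins, trimers of an alpha, a beta and a gamma chain, form one of their networks, and nidogens link it to a network of collagen IV. Integrins are the main receptors for laminins and fibronectin, each made of an alpha and a beta chain that together set the ligand, and in the embryonic brain they anchor radial glia to the basement membrane and act in neural migration.

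RefSeq promoter windows were used for 23 of the 38 genes, 3 of them with 2 windows, on build GRCm38.p6. Any member windows on 1 chromosome were left out, while the share over all windows keeps that chromosome. The 250 bases before the start site are printed for a pair of members that were lower in enriched cells at step 4, Itgb7 and Lama5, and a pair that were higher, Itgb8 and Itga11. Each is written 5′ to 3′ on the strand of its gene, with matches on either strand to GGGCGG (a GC box) or CAGGTG (an E2 box) in capitals.
Itgb7 (chr15:102231936-102232185, minus strand): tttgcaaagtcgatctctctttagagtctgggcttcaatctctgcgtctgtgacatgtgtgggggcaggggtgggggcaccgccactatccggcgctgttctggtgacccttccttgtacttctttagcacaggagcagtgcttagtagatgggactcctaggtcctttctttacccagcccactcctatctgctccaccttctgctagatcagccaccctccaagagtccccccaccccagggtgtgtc
Lama5 (chr2:180225860-180226109, minus strand): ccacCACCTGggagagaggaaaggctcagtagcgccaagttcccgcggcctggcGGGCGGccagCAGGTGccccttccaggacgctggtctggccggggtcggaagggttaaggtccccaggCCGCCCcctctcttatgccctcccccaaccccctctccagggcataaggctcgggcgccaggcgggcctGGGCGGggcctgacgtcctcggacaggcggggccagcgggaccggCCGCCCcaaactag
Itgb8 (chr12:119238277-119238526, minus strand): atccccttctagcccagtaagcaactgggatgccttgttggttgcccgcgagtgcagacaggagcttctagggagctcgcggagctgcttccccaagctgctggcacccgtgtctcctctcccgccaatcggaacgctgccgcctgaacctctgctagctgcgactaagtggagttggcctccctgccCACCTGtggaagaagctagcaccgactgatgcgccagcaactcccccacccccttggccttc
Itga11 (chr9:62677605-62677854, plus strand): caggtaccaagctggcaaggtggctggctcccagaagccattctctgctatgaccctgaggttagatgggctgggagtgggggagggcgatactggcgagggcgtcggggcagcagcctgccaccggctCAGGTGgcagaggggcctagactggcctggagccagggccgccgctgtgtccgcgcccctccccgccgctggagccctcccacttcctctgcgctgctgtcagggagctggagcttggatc
The Lama5 window held 4 GC boxes and 2 E2 boxes, none of which overlapped another. Itgb8 and Itga11 each held 1 E2 box, and Itgb7 had no match to either. Over the 26 windows of the members, 10 held a GC box and 8 an E2 box, against 32.7% and 17.2% of the 32851 promoter windows of that length in the table. TGANTCA, the AP-1 site, occurred in 1 member window (6.75% of all windows), that of Itgax, and the TATA box TATAAA in 0 (12.4%). These matches describe letters in the windows and are not evidence of binding.

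Of the 38 members, 32 had Cy5 well above background on all 12 arrays, and 34 could be tested between groups because a probe had to be so on all 3 arrays of at least 1 group. The 4 left out were Itga2, the alpha chain of a collagen receptor (above background on 2 of 12 arrays), Itgb6, an epithelial beta chain (7 arrays), and the leukocyte chains Itgae and Itgax (0 arrays each). Replicates 1, 2 and 3 of every group lay on slides 1, 2 and 3, so replicate number and slide are the same thing. Slide 2 was scanned on another day and processed with another version of the Feature Extraction software. Its control arrays stood apart in several members, as given below. The number of arrays, 3 a group, limits the precision.

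**Figure D1:**
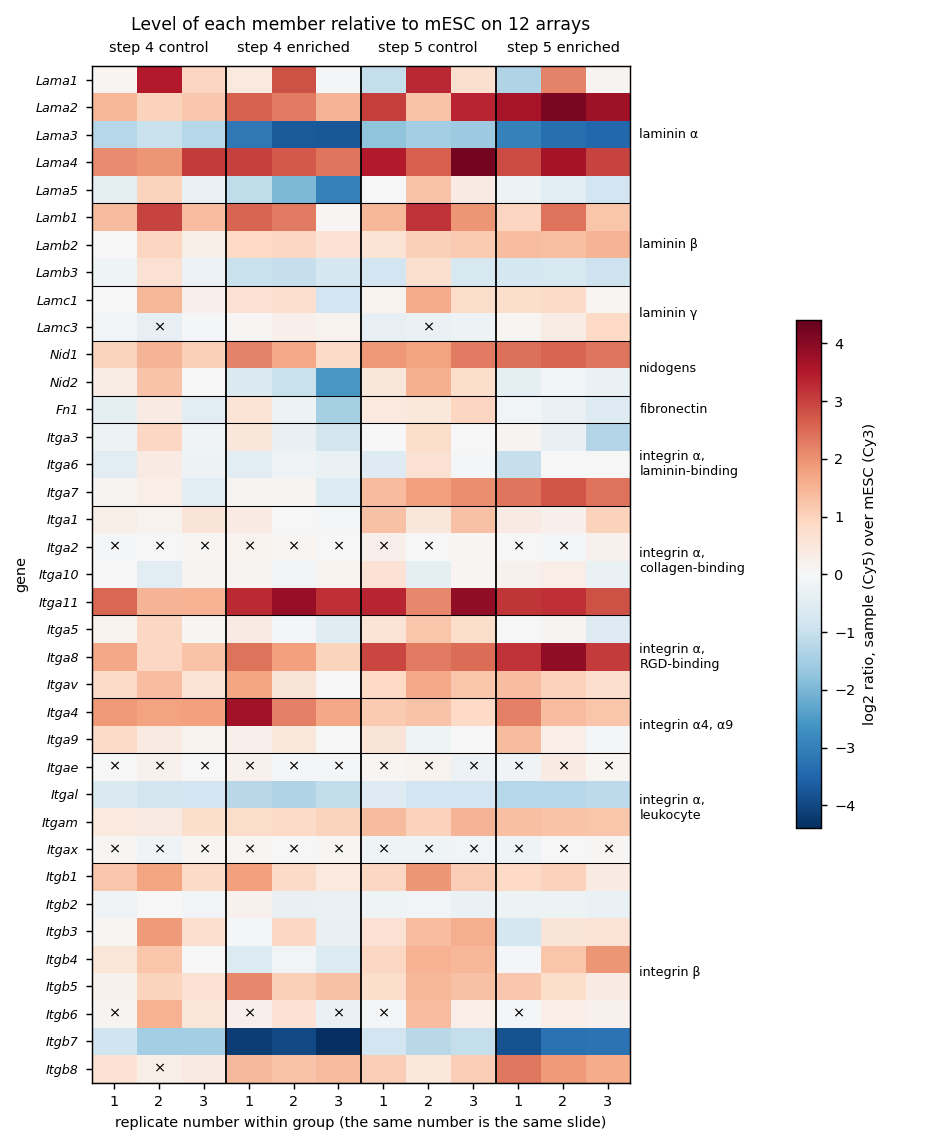
Log2 ratio of each sample to mESC for 37 members (rows, by role) on the 12 arrays (columns, by group and replicate); red is above mESC, blue below, and a cross marks an array on which Cy5 was not well above background. Itgb7 and Lama3 are darkest blue in both enriched groups, and Lama1 is red on the replicate 2 array of every group.

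The first pair of comparisons set enriched beside control cells at each step. At step 4, 2 members rose (Itga11 and Itgb8) and 6 fell (among them Itgb7, Lama3, Lama5, Nid2 and Itgal), which is 8 of 34, or 23.5%. Of all 22320 genes tested, 31.1% passed the same test (adjusted p under 0.05 by limma), 15.0% as higher and 16.2% as lower. At step 5, 3 members rose (Itgb8, Lamc3 and Itga7) and 5 fell (among them Itgb7, Lama3, Itga5 and Itgal), again 23.5%, where 40.4% of all genes passed, 20.3% as higher and 20.2% as lower. The share of members that passed thus lay below that of all genes at both steps. The members' median log2 difference was -0.20 at step 4 and -0.32 at step 5, beside 0.01 and -0.01 over all genes. Groups did not overlap for 14 members at step 4 and 16 at step 5, against 46.9% and 51.2% of all genes. Centring each array on its median in place of loess gave 3 higher and 5 lower members at step 4, with 65.0% of all calls higher in place of 48.1%. At step 5 it gave 5 higher and 3 lower, with 66.1% in place of 50.2%. That centring moved the median of all genes to 0.13 at either step.

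**Figure D2:**
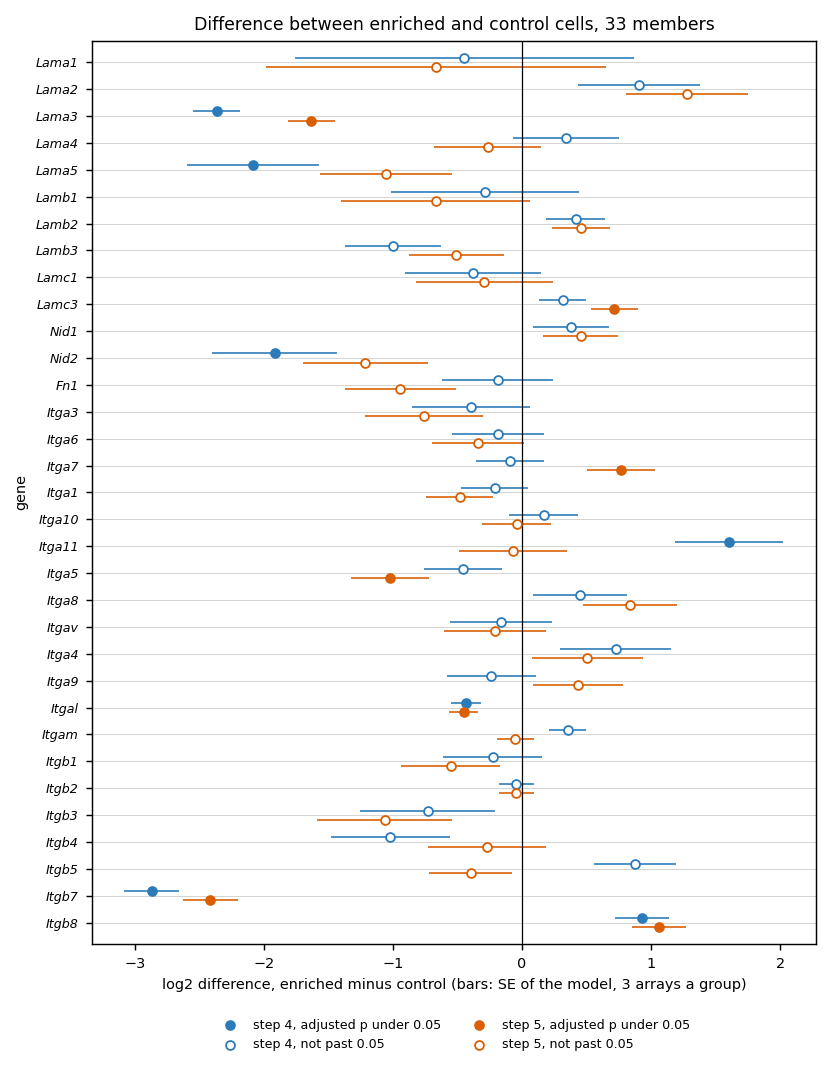
Log2 difference of enriched minus control cells for 33 tested members at step 4 (blue) and step 5 (orange), with the SE of the model (3 arrays a group); filled points passed the test. Itgb7 and Lama3 lie far to the left as filled points at both steps, and Itgb8 is filled on the right at both.

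The members that fell included laminin chains of epithelial basement membranes. Lama3 and Lamb3 encode an alpha and a beta chain of laminin that anchors epithelia. Lama3 had ratios of -1.25, -0.97 and -1.27 in step 4 control cells and -3.15, -3.71 and -3.73 in step 4 enriched cells (replicates 1, 2 and 3). In step 5 control cells it had -1.76, -1.48 and -1.59, and in enriched cells -2.97, -3.31 and -3.45. Every enriched sample thus lay below every control sample, and all 12 lay below mESC. In log2 units, Lama3 fell by 2.37 at step 4 (SE 0.18, adjusted p = 5.78e-05) and by 1.63 at step 5 (SE 0.18, adjusted p = 0.000171), lower on 3 of 3 slides each time. Its other probe fell less, by 1.18 and 0.78.

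Lamb3 had a difference of -1.001 at step 4 (SE 0.37, adjusted p = 0.0625). It passed with the replicate number as a block (adjusted p = 0.0302) and with slide as a random block (adjusted p = 0.0305).

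Lama5, the alpha chain of the laminins most widespread in epithelial and vascular basement membranes, differed at step 4. Its ratios were -0.45, 0.96 and -0.29 in step 4 control cells and -1.10, -1.97 and -2.96 in enriched cells, so the groups did not overlap, and the enriched samples spread over more than 1 log2 unit. At step 5 the control ratios were -0.02, 1.25 and 0.36 and the enriched ones -0.21, -0.51 and -0.86. The step 4 difference was -2.09 (SE 0.51, adjusted p = 0.0123), with -0.66, -2.93 and -2.68 on slides 1, 2 and 3, and the call was lost without slide 2 (-1.67, adjusted p = 0.108). At step 5 the value was -1.06 (adjusted p = 0.125).

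Nid2, the second nidogen, fell at step 4. It had 0.34, 1.25 and -0.02 in control and -0.64, -0.98 and -2.55 in enriched cells, a difference of -1.92 (SE 0.48, adjusted p = 0.0142). Replicate 3 of the enriched cells was the lowest of all 12 samples. The call was lost without slide 2 (-1.76), without step 4 control replicate 2 (-1.55) and when only the 2 groups were fitted (adjusted p = 0.0508). At step 5 the control ratios were 0.52, 1.55 and 0.76 and the enriched ratios -0.40, -0.12 and -0.31. The groups again did not overlap, with a difference of -1.22 (adjusted p = 0.0684). It passed with the replicate number as a block (adjusted p = 0.0272) and with slide as a random block (adjusted p = 0.0321). It also did when only those groups were fitted (0.0167) or step 4 enriched replicate 3 was left out (0.0192). Nid1, its paralog, had 0.98, 1.51 and 1.05 in step 4 control, 2.17, 1.67 and 0.83 in step 4 enriched, 1.89, 1.78 and 2.29 in step 5 control and 2.41, 2.58 and 2.34 in step 5 enriched cells. All 12 values lay above mESC, and Nid1 passed neither enrichment test (adjusted p = 0.361 and 0.247). It passed at step 4 when step 4 enriched replicate 3 was left out (0.74, adjusted p = 0.0439). Between steps in enriched cells it passed when step 4 enriched replicate 1 was left out (1.19, adjusted p = 0.0355).

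The alpha, beta and gamma chains of the laminin that is laid down first in the embryo, Lama1, Lamb1 and Lamc1, passed no test between groups. Lama1 separated the arrays by replicate number. It had 3.49, 2.81, 3.30 and 2.18 on the replicate 2 arrays of step 4 control, step 4 enriched, step 5 control and step 5 enriched cells. On the other 8 arrays it ranged from -1.34 to 0.94, so replicate 2 lay above replicates 1 and 3 in all 4 groups. Lama1 was the 1 member of 38 for which the 4 replicate 2 arrays lay apart from the other 8. With this spread (SD 1.54 to 2.19) its enrichment differences of -0.45 and -0.67 had adjusted p = 0.828 and 0.723.

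Lamc1 followed the same slide in control cells. It had 1.47 and 1.62 in the replicate 2 controls of steps 4 and 5, where the other controls had 0.01 to 0.79, and -0.84 to 0.83 in the enriched cells, with -0.84 in step 4 enriched replicate 3. Lamb1 had 2.98 and 3.18 in the replicate 2 controls, 1.35 to 1.93 in the other controls and 0.04 to 2.55 in enriched cells. Markers of primitive and parietal endoderm, cells that secrete much laminin and collagen IV, moved with this pattern. The median of 13 such markers was 1.58 to 2.79 on the 4 replicate 2 arrays and 0.04 to 1.38 on the other 8. Foxa2 and Sox17 were above background on 12 of 12 arrays, Afp on 8 and Apoa1 on 4. The part of these cells, of the slide and of its scan in the Lama1 values was not tested.

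**Figure D3:**
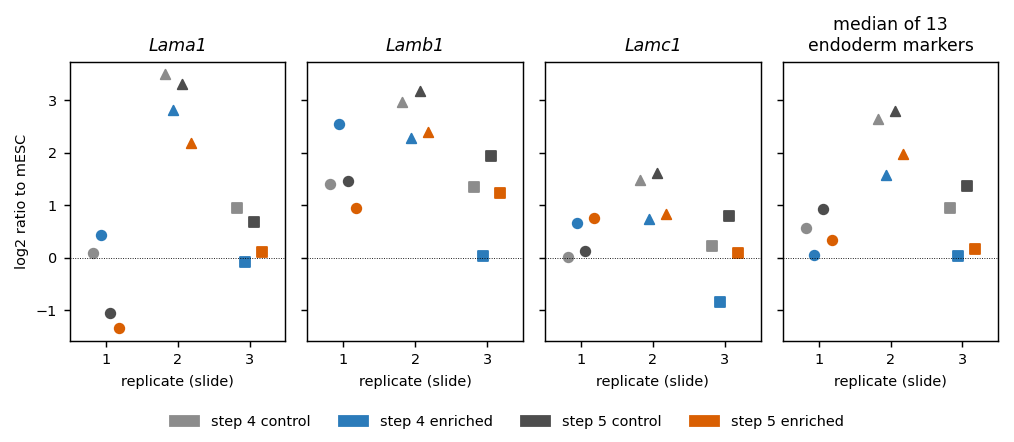
Log2 ratio to mESC of Lama1, Lamb1 and Lamc1 and the median of 13 endoderm markers, by replicate number, which is also the slide; each point is 1 array, coloured by group. The replicate 2 arrays lie highest for Lama1 (2.18 to 3.49) and for the marker median (1.58 to 2.79).

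The other laminin chains are found in muscle, nerve and vessels. Lama4, the alpha chain of vascular and mesenchymal laminins, was 1.93 to 4.20 and Lama2, that of muscle and peripheral nerve, 1.02 to 4.13 above mESC over the 12 arrays. Cy3 was above background for Lama4 on 0 of 12 arrays and for Lama2 on 8, so these ratios rest on a reference near background. Lama2 was higher in every enriched than in every control sample at both steps, with differences of 0.91 (adjusted p = 0.173) and 1.28 (adjusted p = 0.0524) that did not pass. With slide as a random block the step 5 value did (adjusted p = 0.0382), and with the replicate number as a fixed block it did not (0.0566). The step 5 value also passed with median centring (1.66, adjusted p = 0.0263). It did so without step 5 control replicate 1 (0.0484) or 3 (0.0229), or step 4 enriched replicate 3 (0.0488). The step 4 value passed without step 5 control replicate 2 (adjusted p = 0.0261). Lamc3, a gamma chain known from brain and peripheral nerve, rose at step 5 from -0.34, -0.29 and -0.21 to 0.08, 0.33 and 0.89 (0.72, SE 0.18, adjusted p = 0.0102). Its probe was above background on all 3 arrays of either enriched group but on 2 of 3 in either control group. It thus entered the test only through the groups in which it is higher, and the call was lost without slide 2 (0.76, adjusted p = 0.0732). Lamb2, the beta chain of synaptic and vascular laminins, was 0.00 to 1.49 over all arrays and passed neither test.

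Fibronectin, the ligand of the integrin of alpha 5 and beta 1 chains, had -0.41, 0.35 and -0.48 in step 4 control and 0.59, -0.24 and -1.46 in step 4 enriched cells. These ranges overlapped (adjusted p = 0.775). At step 5 the control ratios of 0.43, 0.47 and 0.94 all lay above the enriched ratios of -0.11, -0.30 and -0.58. That difference of -0.94 (SE 0.43) had adjusted p = 0.106 and passed when only the groups of step 5 were fitted (adjusted p = 0.0128) or when replicate 1 (0.0432) or 3 (0.0255) of the step 4 enriched cells was left out.

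Among the integrin chains, the largest change was that of Itgb7, a beta chain known from lymphocytes, where it pairs with Itga4 or Itgae. Its control ratios were -0.89, -1.50 and -1.49 at step 4 and -0.85, -1.22 and -1.04 at step 5. In enriched cells they were -4.15, -3.97 and -4.37 at step 4 and -3.83, -3.29 and -3.24 at step 5. The enriched groups lay over 2 log2 units below every control sample of the same step. In log2 units Itgb7 fell by 2.87 at step 4 (SE 0.21, adjusted p = 5.29e-05) and by 2.42 at step 5 (SE 0.21, adjusted p = 8.58e-05), and passed under all 25 alternatives at both steps.

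Of 10 leukocyte and microglia markers, Csf1r, Coro1a, Fcer1g and Cd68 were above background on 12 of 12 arrays and Laptm5 on 10. Ptprc, the common leukocyte antigen, and Aif1 were so on 2 arrays each, and Cx3cr1, Spi1 and Tyrobp on 0. The median of the list was -0.21 to 0.12 on the 12 arrays. Of the 5 that could be tested, Laptm5 fell by 2.84 at step 4 and by 2.47 at step 5, Fcer1g fell by 0.45 at step 5 (adjusted p = 0.036) and Coro1a rose by 1.63 at step 5 (adjusted p = 0.02). On step 4 enriched replicate 3 only the 4 markers seen on all 12 arrays were above background, so Laptm5 was not. The size of the Laptm5 fall at step 4 is thus limited by signal near background. Itgb7 was measured above background in the mESC reference on all 12 arrays. All 10 markers of pluripotent cells fell at both steps, for example Pou5f1, which fell by 3.78 and 3.35 (log2), and their median was -0.89 to -0.68 in control and -4.61 to -2.93 in enriched samples. Of 10 epithelial markers, 4 fell at each step (Cdh1, Epcam, Cldn7 and Cldn4; Cdh1 by 3.48 and by 4.00), and their median was -0.44 to 0.86 in control and -2.08 to -0.83 in enriched samples. Lama3, Itgb7 and Itgal fell in the same comparisons, and the part of these cell types in their values was not tested.

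**Figure D4:**
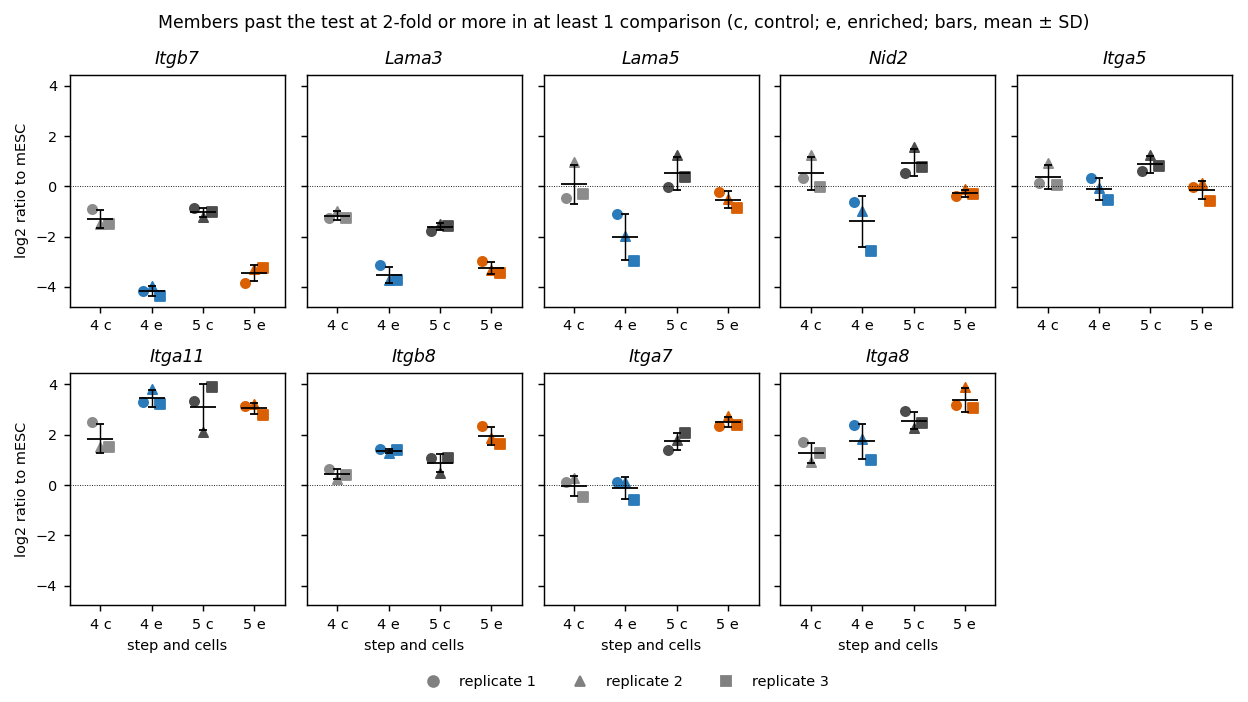
Log2 ratio to mESC for 9 members that passed the test with a log2 difference of at least 1 in at least 1 comparison, by step and cells (c, control; e, enriched); symbols are replicates and bars the mean and SD of 3 samples. The enriched samples of Itgb7 lie at -4.37 to -3.24, below all controls, and those of Itga7 go from 0.13 or less at step 4 to 2.37 or more at step 5.

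Itgb8, the beta chain that pairs with Itgav in neural progenitors and glia and binds latent TGF-beta, rose at both steps. It had 0.64, 0.26 and 0.40 in step 4 control and 1.42, 1.27 and 1.40 in step 4 enriched cells. At step 5 the control cells had 1.09, 0.46 and 1.09 and the enriched cells 2.33, 1.86 and 1.63. No enriched sample overlapped a control sample of its step. The differences were 0.93 (SE 0.21, adjusted p = 0.009) and 1.06 (SE 0.21, adjusted p = 0.00305), higher on 3 of 3 slides each time. The step 4 call was lost without slide 2 (0.89, adjusted p = 0.0555). Cy5 was above background for Itgb8 on 11 of 12 arrays, all but step 4 control replicate 2. Cy3 was so on 0 of 12 arrays, so its ratios rest on a reference at background. Itgav, its partner, had 0.85, 1.37 and 0.59 in step 4 control, 1.73, 0.56 and 0.03 in step 4 enriched, 0.87, 1.68 and 1.22 in step 5 control and 1.37, 1.03 and 0.74 in step 5 enriched cells. Itgav was above mESC on all arrays and overlapped between groups in both comparisons (adjusted p = 0.786 and 0.708). Its sign turned with median centring.

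Itga11, the alpha chain of a collagen receptor of fibroblasts, rose at step 4. The ratios were 2.51, 1.50 and 1.51 in control and 3.29, 3.83 and 3.22 in enriched cells, which did not overlap. The difference was 1.61 (SE 0.42, adjusted p = 0.0164), and the call was lost without slide 2 (1.245) and without replicate 2 of the control (1.43) or of the enriched cells (1.42). At step 5 the control ratios of 3.34, 2.11 and 3.90 spanned the enriched ratios of 3.13, 3.21 and 2.80. The change of the enrichment difference between steps, -1.68, did not pass (adjusted p = 0.556). Of 10 fibroblast and mesenchyme markers, 2 rose at step 4 (Prrx1 by 1.22 and Col3a1 by 1.03) and 0 at step 5. The median of these markers was 1.62 to 3.25 in step 4 control, 3.53 to 4.23 in step 4 enriched, 3.30 to 6.10 in step 5 control and 5.13 to 5.63 in step 5 enriched samples, and their part in Itga11 was not tested.

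Itga5, the alpha chain of the fibronectin receptor, fell at step 5. It had 0.59, 1.23 and 0.80 in step 5 control and -0.02, 0.13 and -0.56 in step 5 enriched cells (-1.02, SE 0.30, adjusted p = 0.0206). The groups did not overlap, and the call was lost without slide 2 (-0.99), when either control replicate 2 (-0.845) or enriched replicate 3 (-0.82) of step 5 was left out, and with median centring (-0.82). At step 4 its ratios were 0.14, 0.92 and 0.05 in control and 0.35, -0.08 and -0.53 in enriched cells, which overlapped.

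Itgb1, the beta chain shared by most laminin, collagen and fibronectin receptors, was above mESC in every sample. It had 1.19, 1.72 and 0.83 in step 4 control, 1.79, 0.83 and 0.44 in step 4 enriched, 0.90, 1.95 and 1.09 in step 5 control and 0.87, 1.02 and 0.38 in step 5 enriched cells. The ranges overlapped at both steps (adjusted p = 0.693 and 0.282). Itga6, the alpha chain of laminin receptors of stem and neural cells, had -0.47, 0.35 and -0.24 in step 4 control and -0.47, -0.17 and -0.29 in step 4 enriched cells. At step 5 it had -0.57, 0.67 and -0.06 in control and -1.01, 0.03 and -0.01 in enriched cells. Its groups overlapped as well (adjusted p = 0.724 and 0.476), and its 12 values ran from -1.01 to 0.67.

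Itgal, a leukocyte alpha chain, fell by 0.44 at step 4 (SE 0.12, adjusted p = 0.0168) and by 0.45 at step 5 (SE 0.12, adjusted p = 0.0101). Its control samples lay at -0.86 to -0.58 and its enriched samples at -1.34 to -1.08, without overlap. Another probe of Itgal gave 0.03 and 0.02, and the mean over its probes passed at neither step. Its calls were also lost with median centring (-0.25 and -0.27) and without slide 2 (-0.40 and -0.49), and that of step 4 without control replicate 1 (-0.37) or enriched replicate 2 (-0.375). Of the chains that passed neither enrichment test, Itgb4, which pairs with Itga6 in the hemidesmosomes of epithelia, was lower in every enriched than in every control sample at step 4 (-1.02, adjusted p = 0.116). Itgb5, a vitronectin receptor chain, was higher in every enriched sample at step 4 (0.87, adjusted p = 0.0607) and passed with slide as a random block (0.0472), not as a fixed one (0.0738). Itgb3, the other beta chain of vitronectin receptors, had -1.07 at step 5 (adjusted p = 0.131) and passed with the replicate number as a block (adjusted p = 0.0269). The remaining tested alpha and beta chains, Itga1, Itga3, Itga4, Itga8, Itga9, Itga10, Itgam and Itgb2, did not pass at either step. Of these, Itgam, a chain of macrophages and microglia, passed at step 4 with the replicate number as a block (0.35, adjusted p = 0.0449). Itgam also passed there with slide as a random block (adjusted p = 0.0426). Its value rests on 1 bright probe, and the mean over its 3 probes was -0.02. Itga8 passed at step 5 with median centring (1.17, adjusted p = 0.0354) and without step 4 enriched replicate 3 (0.83, adjusted p = 0.0488). Itga1 passed at step 5 without step 5 control replicate 2 (-0.75, adjusted p = 0.035) and without both control arrays of slide 2 (adjusted p = 0.0393).

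The next pair of comparisons asked what changed from step 4 to step 5. In enriched cells 2 members rose, both integrin alpha chains, and 0 fell, which is 5.88% of 34 beside 6.42% of all genes tested (3.96% higher and 2.46% lower). With the replicate number as a block 2440 in place of 1433 genes passed, and the members still gave 2 and 0. Groups did not overlap for 12 members and for 28.8% of all genes. Itga7, the alpha chain of a laminin receptor of muscle and glia, went from 0.12, 0.13 and -0.61 at step 4 to 2.37, 2.75 and 2.40 at step 5. It rose 6.19-fold (log2 2.63, SE 0.26, adjusted p = 0.00133) on 3 of 3 slides and passed under all 25 alternatives. Itga8, which with Itgb1 binds nephronectin and fibronectin, went from 2.40, 1.81 and 0.99 to 3.17, 3.91 and 3.07. It rose 3.14-fold (log2 1.65, SE 0.36, adjusted p = 0.0255), and the call was lost under 7 alternatives, leaving out slide 2, replicate 2 or 3 of either enriched group, the deposited table and the fit of these groups alone, with values of 1.28 to 1.81. Cy3 was above background for Itga8 on 5 of 12 arrays.

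Astrocyte and oligodendrocyte markers rose in the same enriched cells, 5 of 10 past the test. Their median in enriched samples was 0.37 to 1.28 at step 4 and 4.36 to 5.00 at step 5. In control samples it was -0.045 to 0.267 and 0.254 to 3.392, with replicate 2 lowest at either step. The median of fibroblast and mesenchyme markers in enriched samples was 3.53 to 4.23 at step 4 and 5.13 to 5.63 at step 5. That of smooth and striated muscle markers was 0.645 to 1.475 and 0.082 to 0.255. The part of these cell types in Itga7 and Itga8 was not tested. Members that did not pass but whose groups were apart in enriched cells included Lama2, with a value of 1.71 (adjusted p = 0.0598), and Itgb4, with 1.47 (adjusted p = 0.0907). Both passed with slide as a random block (adjusted p = 0.0366 and 0.0437), as did Itgb7 (0.71, adjusted p = 0.0496), and none of them with the replicate number as a fixed block (0.0555, 0.0501 and 0.079).

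In control cells 0 of 34 members passed between steps, as did 0.00% of all genes by limma. At an unadjusted p under 0.05 there were 10 members and 1917 of 22320 genes. Among all genes 2 passed with the deposited table, 81 without slide 2, 184 without both control arrays of slide 2 and 408 without step 5 control replicate 2. Itga7 had 0.11, 0.28 and -0.47 in step 4 and 1.38, 1.80 and 2.05 in step 5 control cells, a difference of 1.77 (SE 0.26, unadjusted p = 4.2e-05, adjusted p = 0.147). It passed without step 5 control replicate 2 (1.74, adjusted p = 0.0244) and without both control arrays of slide 2 (1.89, adjusted p = 0.043), as Itga11 (1.78), Itgam (0.92) and Lama2 (1.98) did without the former. Control samples of Itga8 lay at 1.70, 0.91 and 1.25 at step 4 and at 2.93, 2.27 and 2.45 at step 5, also without overlap (adjusted p = 0.301). Groups did not overlap for 7 members and for 12.6% of all genes.

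Itga7 also passed between enriched and control cells at step 5 (0.76, SE 0.26, adjusted p = 0.0399), a call lost under 10 of 25 alternatives, with adjusted p between 0.0507 and 0.193. Whether the enrichment difference itself changed between steps was tested as an interaction. It passed for 0 of 34 members and 0.00% of all genes by limma, with 4 members and 1574 genes at an unadjusted p under 0.05, and for at most 16 genes under the alternatives. The smallest adjusted p among members was 0.554, that of Lama3. An effect that passed at 1 step and not at the other is therefore not shown to differ between them.

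Against mESC, 28 members with a reference above background on all 12 arrays were tested. The numbers that differed were 11 in step 4 control (8 higher and 3 lower), 14 in step 4 enriched (8 and 6), 17 in step 5 control (14 and 3) and 16 in step 5 enriched cells (11 and 5). Of all 18060 genes so tested, 43.0% (22.0% higher and 21.1% lower), 70.3% (32.7% and 37.6%), 48.3% (25.4% and 22.9%) and 74.1% (34.6% and 39.5%) differed. The tests are of a ratio against 0, leave out the spread of the reference and, with 0 dye swaps, hold any dye effect. In all 4 groups 7 members were above mESC: Itga11, Itgam (by its bright probe), Itgav, Itgb1, Itgb5, Lamb1 and Nid1. The 3 below mESC in all 4 groups were Itgal, Itgb7 and Lama3. The share of all genes on the same side of mESC in all 4 groups was not computed, so these counts only describe levels. Itgb7 was 17.9-fold lower in step 4 enriched cells (log2 -4.17, SE 0.15, adjusted p = 1.03e-08), and Lama3 11.5-fold lower (log2 -3.53, SE 0.13, adjusted p = 1.12e-08). Nid1 was higher in step 5 enriched cells by 2.44 (SE 0.21, adjusted p = 1.5e-06).

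Other genes of adhesion to the basement membrane were read from lists by role. Beside the counts of each list, 15.0% of all genes tested rose and 16.2% fell at step 4. At step 5 these shares were 20.3% and 20.2%. Of 28 tested adaptors that join integrins to actin and signalling, 7 rose and 0 fell at step 4 and 6 rose and 2 fell at step 5. Fyn, a kinase acting beside them, rose by 1.39 and by 2.14 on the log2 scale (adjusted p = 0.0138 and 0.00111). Arhgef7 rose by 1.17 and by 0.88, Nedd9 by 0.97 at step 4 and Tns3 by 1.45 at step 5. Actn4 fell by 0.98 and Fermt3, a kindlin of blood cells, by 0.48 at step 5. Fermt3 was above background on 7 arrays, among them every step 5 control array but only replicate 1 of the step 5 enriched cells. Fermt3 thus entered the test only through step 5 control, the group in which it is higher at that step. The size of its fall is limited by signal near background. Ptk2, the focal adhesion kinase, rose by 0.72 at step 4 (SE 0.16, adjusted p = 0.00755), and Ilk, the integrin-linked kinase, by 0.59 at step 5 (SE 0.16, adjusted p = 0.0153). The list's median was 0.06 at both steps.

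Of 18 receptors for laminin other than integrins, 4 rose and 3 fell at step 4 and 6 rose and 3 fell at step 5. The glypican Gpc1 rose by 1.51 and by 1.72. The syndecan Sdc3 rose by 1.44 and by 1.68. Sdc4 fell by 2.08 and by 1.21, Bcam, a receptor for the laminin chain Lama5, by 1.58 and by 1.48, and utrophin (Utrn) by 0.70 and by 1.04. Dag1, dystroglycan itself, had 0.32 and 0.01 (adjusted p = 0.396 and 0.974). Of 23 further basement membrane genes, a list that repeats Lamb1, 6 rose and 0 fell at step 4 and 4 rose and 0 fell at step 5. Frem1 (1.52), Fras1 (1.44) and Col4a5 (1.35) led the rises at step 4 and Col4a6 (1.64), Col4a5 (1.59) and Fras1 (0.85) at step 5. The main collagen IV chains Col4a1 (0.15 and 0.15) and Col4a2 (0.07 and 0.09) did not pass, nor did perlecan, Hspg2 (-0.39 and -0.51).

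Of 16 tested integrin partners and chains outside the members, 3 rose at step 4 and 2 at step 5, and 0 fell. Tspan3, a tetraspanin, rose by 1.42 and by 1.83, Adam9 by 0.77 and Itgb1bp2 by 0.40 at step 4, and Cd81, another tetraspanin, by 0.96 at step 5. Of 25 other integrin ligands, 2 rose and 3 fell at step 4 and 4 rose and 3 fell at step 5. Edil3 rose by 0.91 and by 1.15, Col3a1 by 1.03 at step 4, and Vtn (vitronectin) by 1.92 and Ltbp1 by 1.101 at step 5. Osteopontin (Spp1) fell by 2.21 and by 1.89, Icam1 by 1.27 and by 1.21, and Madcam1 by 0.58 and by 0.65, the last of them the ligand of the Itgb7 integrin of lymphocytes. From step 4 to step 5 in enriched cells, Parvb (1.32) and Tns3 (1.34) of the adaptors rose. Cd81 (1.34), Cd47 (0.83) and Sgcb (0.78) rose as well, while Fras1 fell by 1.12, Sdc1 by 0.81 and Itgb1bp2 by 0.47. In control cells 0 genes of these lists passed between steps.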

How the data were processed

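RNA of 12 samples was measured on 2-colour Agilent arrays from 100 ng of RNA each, per the labels, with the sample in Cy5 and mESC in Cy3. The scanner files hold the intensity of each spot (mean signal) and the median of its local background, per the file headers (Feature Extraction 10.7.3.1, or 10.5.1.1 on slide 2). They also hold a log10 ratio of processed, dye-normalized signals, per the file headers. The deposited table holds log2 ratios whose making is not given in the sources used here. Set against the scanner's ratios turned into log2, 99.38% or more of its values on each array were equal within 0.001 and its direction was Cy5 over Cy3.

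The intensities were background-corrected (normexp, offset 50, which pulls ratios of dim probes toward 0) and each array was loess-normalized in R 4.3.3 with limma 3.58.1. Control spots and outlier spots (128 to 298 an array) were dropped before averaging the spots of each probe. Gene names of the newer annotation, held by 8 files, were used for all arrays. Tests between groups took genes whose Cy5 signal cleared background in every array of some group; those against mESC also needed this of Cy3 in all 12. One linear model with 4 group means was fitted to all 12 arrays, and moderated two-sided tests by limma were adjusted by Benjamini-Hochberg over 22320 genes (18060 against mESC), with a threshold of 0.05. SE is that of the model. The steps were tested on simulated data.

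Deviations from group means correlated between same-numbered arrays at 0.13 to 0.644 for enriched and control cells of step 4, 0.188 to 0.361 for those of step 5, 0.463 to 0.747 between steps in control and 0.341 to 0.413 in enriched cells. The labels name no pairing, so the reported tests leave the slide out and do not use a pairing by slide. Values with the replicate number as a fixed or slide as a random block are alternatives, given where a call changes. The members and gene lists were chosen with earlier results of these data known. Values on every array are given for members past the threshold with a log2 difference of at least 1 in some comparison between groups and for Itgb1, Itga6, Itgav, Lama1, Lamc1, Nid1 and Fn1. From each list up to 3 genes per direction with the largest difference are named, with Dag1, Col4a1, Col4a2, Hspg2, Ilk and Ptk2. Promoter windows come from RefSeq. Results for some genes are not reported here, though counts include them.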

Additional observations from a re-analysis of the deposited data

How the results depend on the processing

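Of 25 alternatives, 24 were planned; leaving out both control arrays of slide 2 was chosen after seeing the data. Counts are of members past the test, beside 2 higher and 6 lower at step 4, 3 and 5 at step 5, and 2 and 0 between steps in enriched cells. Median centring gave 5 higher and 3 lower at step 5 and 18 against mESC in step 4 control cells (11 by loess). The deposited table gave 1 higher between steps in enriched cells. Requiring Cy5 above background on all 12 arrays gave 1 higher at step 4 and 1 at step 5. Slide as a random block gave 4 higher and 7 lower at step 4, 4 and 6 at step 5, and 5 higher between steps in enriched cells. The replicate block gave 3 higher and 7 lower at step 4, and 3 and 7 at step 5; it changed no call between groups other than those given with it above. Without slide 2 there were 0 higher at step 4, 1 higher and 3 lower at step 5, and 1 higher between steps in enriched cells. Without both control arrays of slide 2 there were 3 higher between steps in control cells. Leaving out 1 array at a time gave 1 to 4 higher and 4 to 7 lower at step 4, 2 to 5 higher and 4 to 7 lower at step 5, 0 to 4 higher between steps in control cells and 1 to 4 in enriched cells.

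Genes past the test between steps in enriched cells numbered 310 without slide 2, 939 when only those groups were fitted, 2538 with slide as a random block and 445 to 1764 with 1 array left out (1433 as reported). Between steps in control cells the range with 1 array left out was 0 to 408.

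An enrichment difference turned sign under some alternative for 12 of 34 members at step 4 and 9 at step 5, and 0 of these differences had passed as reported. At step 5 Itga11 (-0.07) ranged from -0.652 to 0.322, and at step 4 Itga7 (-0.095) from -0.316 to 0.15. With median centring Itgav was 0.043 at step 4 and 0.062 at step 5. The mean over its probes gave Itgam -0.022 at step 4. Without slide 2, step 4 values were 0.01 for Fn1, 0.16 for Itgav and 0.11 for Itgb1, and Itgav was 0.009 at step 5. Without both control arrays of slide 2, they were 0.075 for Fn1, 0.045 for Itga6, 0.052 for Itgav, 0.01 for Itgb1, 0.546 for Lama1 and 0.073 for Lamc1 at step 4, and 0.493 for Lama1 and 0.093 for Lamc1 at step 5. With 1 array left out, step 4 values ranged from -0.67 to 0.35 for Fn1, -0.365 to 0.045 for Itga6, -0.64 to 0.20 for Itgav, -0.615 to 0.064 for Itgb1, -1.32 to 0.55 for Lama1 and -0.66 to 0.14 for Lamc1. At step 5 they ranged from -1.68 to 0.49 for Lama1 and -0.65 to 0.093 for Lamc1. The causes were not tested. Members with Cy3 at background (Itga4, Itgb8 and Lama4 on 0 arrays) have ratios to mESC limited by that signal.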

Other observations

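Probes of a gene did not always agree. The probe that stands for Itgam had a mean log2 intensity of 13.1, while its other probes had 6.94 and 6.78. At step 4 these gave 0.35, -0.34 and -0.08 for enriched minus control cells, and at step 5 -0.05, -0.16 and 0.00. The Itgal probes, with intensities of 7.31, 6.90 and 6.70, gave -0.44, 0.03 and -0.19 at step 4. The Lama3 probes, of intensity 8.65 and 8.64, gave -2.37 and -1.18, the same direction at different sizes.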
